A study of Caenorhabditis elegans with 4 samples.

Results

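The weaker shared regions are places on the nuclear chromosomes of Caenorhabditis elegans that were called in both CES-1 ChIP replicates of embryos but are absent from the study's combined list. Each is a region of the replicate 1 list that overlapped a replicate 2 region by at least 1 bp and overlapped no combined region. There were 9900 of them among 29977 nuclear replicate 1 regions (33.0%, 95% Wilson interval 32.5 to 33.6). Another 10285 replicate 1 regions (34.3%) overlapped the combined list, and 9792 (32.7%) overlapped neither the combined list nor replicate 2. The last set is called unshared below. The regions were thus chosen by the authors' calls in both replicates and in the combined list, so values that rest on these calls are descriptions, and no difference was tested. Taken from the replicate 2 side, the same rule gave 9985 regions (33.3%). After overlapping regions were merged, the 9900 formed 8406 stretches that covered 4.08 Mb.

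CES-1 belongs to the Snail family of zinc-finger proteins, which bind DNA and regulate genes. In the worm it is known for controlling whether the sister cell of a pharyngeal neuron dies during embryogenesis, through the cell-death activator gene egl-1. Snail proteins recognise short E-box motifs and are best known as repressors. In ChIP with sequencing, a region is called where fragments bound by the tagged protein pile up over input DNA, so a long list shades from strong, repeatable regions into weak ones. Worm autosomes have a gene-dense centre and an arm on each side that holds more repeats and more silent chromatin, while X is more even along its length.

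The 2 ChIP and 2 Input libraries all came from strain OP174 embryos, from a population of males and hermaphrodites grown at 20 degrees Celsius. All libraries share the genotype unc-119(ed3) with the transgene wgIs174, which carries ces-1 with TY1, EGFP and FLAG tags together with unc-119. The transgene was introduced by biolistic transformation, the regions are those of its tagged protein, and no library from worms without the tag was used here. The embryos are labelled by stage alone, and nothing says that the replicates came from separate cultures. Each ChIP list held 30000 regions and the combined list 8678. Read counts are not part of the lists, so the depth behind each region is unknown.

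The lists rank each region with a peak number, where 1 is the best. Replicate 1 listed the weaker shared regions from number 751 to number 30000, with a median of 17772 and quartiles of 12640.5 and 23564. Their replicate 2 partners, taken as the region with the largest overlap, ran from 1136 to 29998 with a median of 17820.5. Replicate 1 regions in the combined list had a median number of 5259, and their partners 4847.5. The unshared regions had a median of 20987. How the combined list was made is not stated, but it is the series' list for the same libraries, so peak numbers count as used in the choice of the regions.

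**Figure D1:**
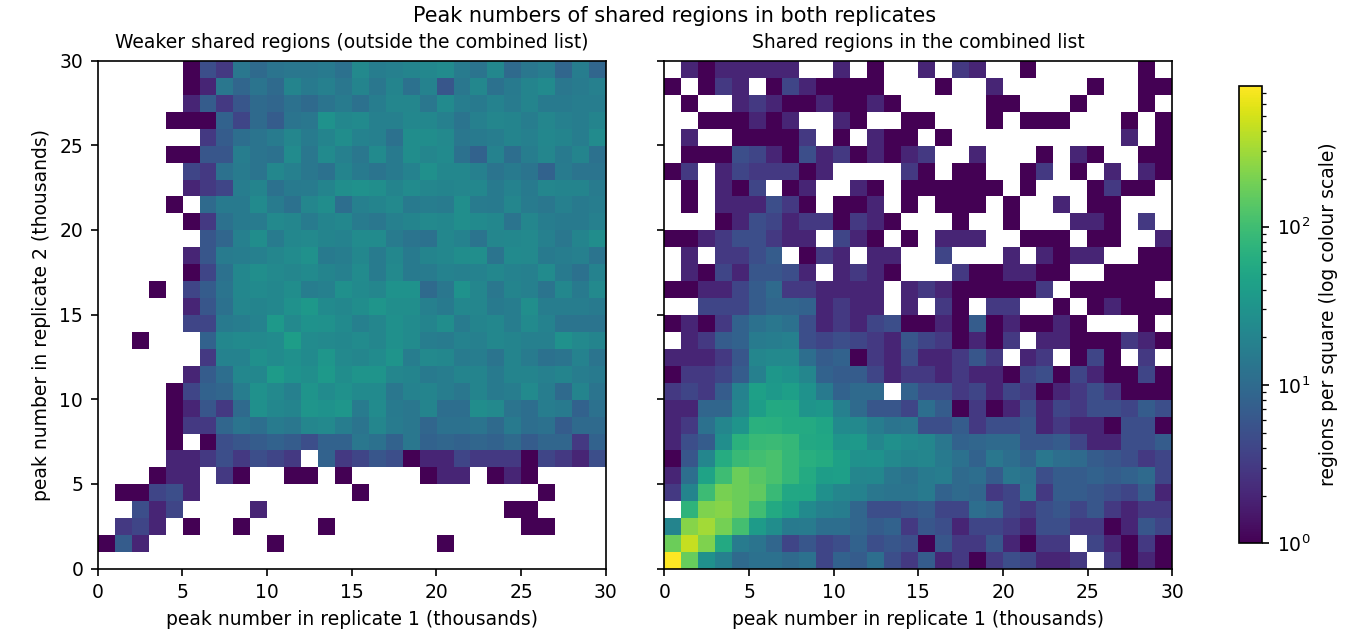
Number of shared regions in each square of 1000 by 1000 peak numbers, with the replicate 1 number on the horizontal axis, the replicate 2 number on the vertical axis and a log colour scale. The weaker shared regions (left) fill the corner where both numbers are above about 7000, plus a thin diagonal of better-ranked regions. The diagonal holds 41 regions with both numbers up to 5000 and runs on past that limit. The shared regions of the combined list (right) hold the strip along both axes.

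The weaker shared regions differed from the combined list in both of their numbers. Of the 9900, 9579 (96.8%) had both numbers above 7000, and 70 (0.707%) had either number up to 5000. Among all shared regions, the share left out of the combined list was 0.688% where the better number was 2500 or less. It was 9.52% for better numbers from 6001 to 6500, 42.3% from 7501 to 8000 and 79.9% from 9001 to 10000. Beyond 20000 it reached 97.03% of 1785 shared regions, and the other 53, though weak in both replicates, overlapped the combined list. The geometric mean of both numbers divided the lists about as sharply, with 0.614% left out up to 2500, 49.7% over 10000 to 11000 and 97.6% over 25000. A region that was weak in 1 replicate was thus seldom left out where the other replicate ranked it well.

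**Figure D2:**
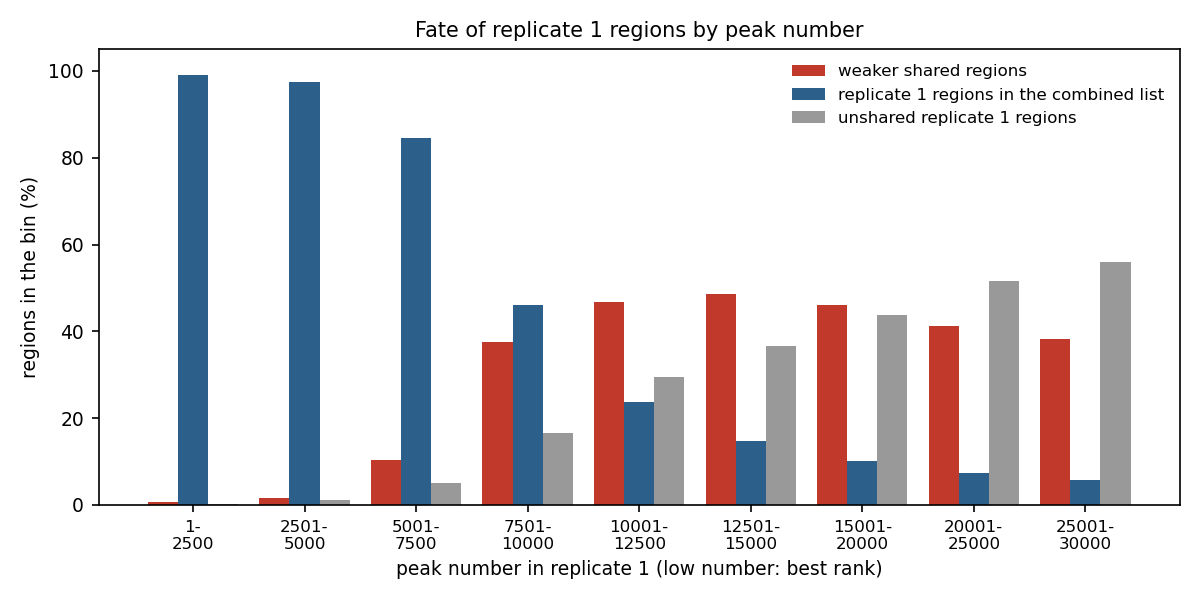
Share of replicate 1 regions in each range of replicate 1 peak numbers that were weaker shared regions, in the combined list or unshared (bars within a range add to 100%). Weaker shared regions were 0.723% of numbers 1 to 2500, 48.7% of numbers 12501 to 15000 and 38.2% of numbers 25001 to 30000.

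By replicate 1 number alone, weaker shared regions were 37.4% of all regions numbered 7501 to 10000, against 46.1% for the combined list. They were most frequent at numbers 12501 to 15000, with 1217 of 2500 regions. Farther down, the unshared regions took over, with 56.0% of numbers 25001 to 30000. Among regions outside the combined list, the share that replicate 2 also called was 69.4% at numbers 7501 to 10000 and 40.5% at numbers 25001 to 30000.

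Within the set, the number in 1 replicate said little about the number in the other. Spearman's rho over the 9900 regions was 0.103, against 0.643 over the 10228 shared regions of the combined list and 0.680 over all 20128 shared regions. These are descriptions across regions of 2 libraries, and leaving out the regions that ranked well in either replicate narrows the range over which rho is taken. For replicate 1 numbers 7501 to 10000, the partners had a median number of 16907 (quartiles 12480 and 21889.5). For replicate 1 numbers 25001 to 30000 the median was 18888 (quartiles 13639 and 24564). From replicate 1 number 5001 on, the median of the partners lay between 16615 and 18888 in every range. Below that it was lower, at 1895 for the 18 regions numbered 1 to 2500 and 4312 for the 37 numbered 2501 to 5000. When all shared regions with both numbers above 15000 were taken, whether or not in the combined list, rho was 0.0154 (n = 4346). On single chromosomes rho lay between 0.0796 on X and 0.138 on III. It was 0.172 for the 1461 weaker shared regions over 10 kb from any combined region and 0.0605 for the 2571 within 1 kb of one. The numbers differed by a median of 0.51 on the log2 scale, against 0.55 in the combined list. The narrower range of the weaker shared regions also bounds this difference, so these 2 medians do not compare agreement on like terms. Replicate 1 gave the better number in 5007 of the 9900 (50.6%).

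A small group ranked well in both replicates, with no gap between it and the next regions at its limit. In 41 weaker shared regions both numbers were 5000 or less, and in 34 both regions were at the ceiling of the authors' score. The 12 best of these, by the worse of their 2 numbers, were all at the ceiling in both replicates. The best lay on I at 9625976 to 9626187, with number 751 in replicate 1 and 1194 in replicate 2. The second, on III at 8020949 to 8021147, had numbers 1368 and 1136. On IV, the region at 8289563 to 8290002 had numbers 1421 and 1362 and lay 36312 bp from the nearest combined region. The remaining best regions on IV were at 12567207 to 12567646 (numbers 1642 and 1875), at 12724719 to 12724927 (1243 and 1915), at 6998438 to 6998877 (1887 and 2006) and at 4171882 to 4172036 (1456 and 2184). Chromosome IV thus held 5 of the 12. The others were a second region on I at 9013899 to 9014338 (1557 and 1661), a second on III at 4599096 to 4599535 (1727 and 1765) and 3 regions on II and V. These lay on II at 6741359 to 6741798 (2057 and 1664), on V at 13313005 to 13313444 (1663 and 1824) and on V at 9503330 to 9503769 (2230 and 1584). The best on X, at 15724868 to 15725307 with numbers 4365 and 4278, came only at place 33 among all weaker shared regions. Of all 41, chromosome IV held 9, as many as I, and 17.8% of all weaker shared regions were on IV.

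The 41 regions were set beside 3927 combined-list regions with the same limits on both numbers. Their replicate centres lay a median of 13 bp apart, against 19 bp in the combined list. Of the 39 on autosomes, 28 (71.8%, Wilson interval 56.2 to 83.5) lay in the middle 33.3% of the chromosome, against 43.6% (41.9 to 45.4) of the combined-list regions. On X there were 2 of 41 (4.88%, Wilson interval 1.35 to 16.1), against 21.7% in the combined list. The nearest combined region was a median of 7294 bp away, and 19 of the 41 lay over 10 kb from one. None of the 41 lay within 1 kb of another of them. The 5000 limit was chosen after the plot of both numbers had been seen, and the group is small.

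Taken over all ranks, the position of a weaker shared region was less sharply repeated between replicates than that of a combined region. The order turned among the worst replicate 1 numbers, as given below. Over all ranks, the centres of the 2 calls lay a median of 104 bp apart (quartiles 37 and 221 bp), against 34 bp (12 and 83) in the combined list. Centres within 50 bp of each other were found for 3042 weaker shared regions (30.7%), against 61.6% of the shared combined-list regions. Centres over 200 bp apart were found for 28.7%, against 8.49%. The overlap had a median of 334 bp, against 377 bp. The median offset of the weaker shared regions was 7.75 bp for the 18 regions at replicate 1 numbers 1 to 2500 and 36 bp for the 37 at 2501 to 5000. Beyond 5000 it lay between 98 and 120 bp, with 99 bp at numbers 7501 to 10000 and 120 bp at numbers 25001 to 30000. In the combined list it was 45 bp and 157 bp in these last 2 ranges. The weaker shared regions had the larger median offset in every range from 2501 to 15000, with 98 bp against 78 bp at 12501 to 15000. Theirs was the smaller at numbers 15001 to 20000 (99 against 116 bp) and 20001 to 25000 (103 against 150 bp), as at 25001 to 30000. At numbers 1 to 2500 theirs was also smaller, against 17 bp in the combined list. The rule itself caps the offset, since calls must overlap, and these values describe the regions with no test.

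Nearly all had the same width. Of the weaker shared regions 9894 were 440 bp wide, the most frequent width in replicate 1, and 6 were narrower. All 6 narrow ones belonged to the 41 strong regions. In the combined list 1389 of 10285 replicate 1 regions were narrower and 58 wider than 440 bp. The replicate 2 calls were mostly 436 bp wide, as were 9972 of the 9985 counterparts. A single replicate 2 partner was overlapped by 8009 weaker shared regions (80.9%), 2 partners by 1794 and 3 or more by 97. In 2380 cases (24.04%) the chosen partner was also that of another weaker shared region, so neighbouring regions are not independent calls. For 68 regions (0.687%) the partner itself overlapped the combined list. These 68 lay a median of 123 bp from a combined region, with replicate centres 329.5 bp apart. The rule largely sets both values, since the partner reaches a combined region that the weaker shared region may not touch.

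**Figure D3:**
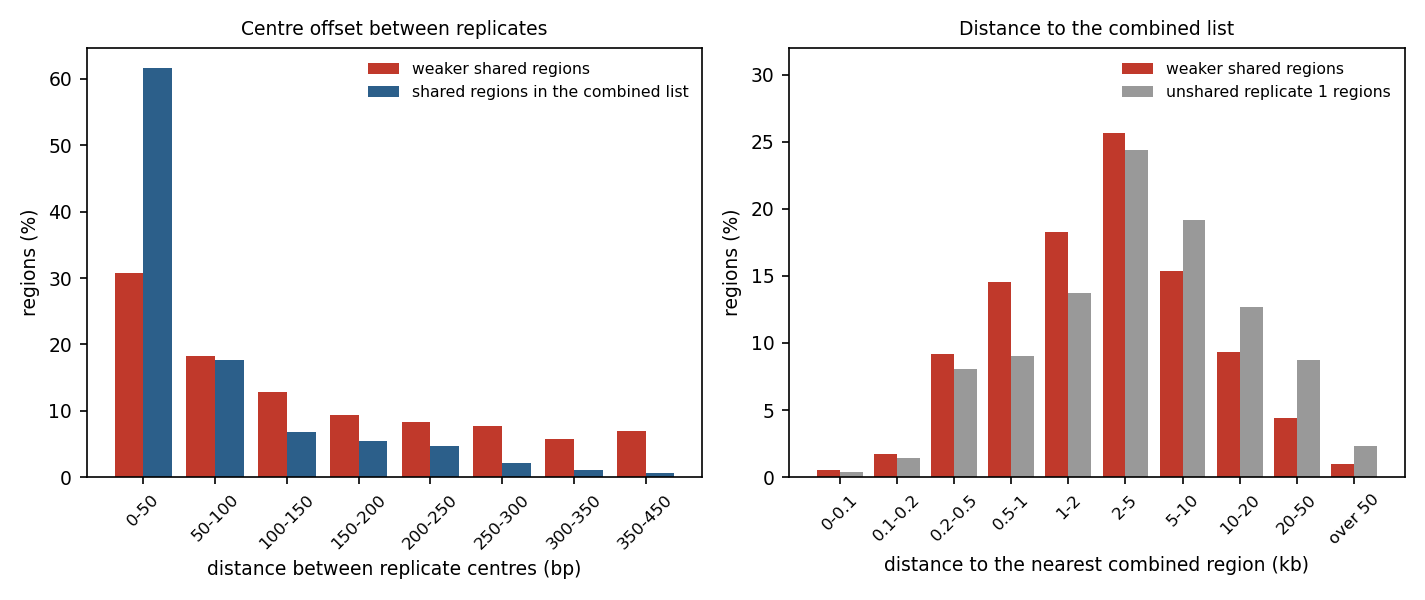
Left, distance in bp between the centres of the replicate 1 and replicate 2 calls, as a percentage of weaker shared regions and of shared regions in the combined list. Right, distance in kb to the nearest combined region, as a percentage of weaker shared regions and of unshared regions; 30.7% of weaker shared regions had centres within 50 bp, and their distances to the combined list were shorter than those of unshared regions (medians 2468 and 3907.5 bp).

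Weaker shared regions lay closer to the combined list than unshared regions did. The distance to the nearest combined region had a median of 2468 bp (quartiles 961.75 and 6107 bp), against 3907.5 bp (1415 and 9446) for the unshared regions of replicate 1. Seen from replicate 2, the medians were 2447 bp and 3233 bp. Within 1 kb of a combined region lay 26.0% of the weaker shared regions, against 18.9% of the unshared ones. Over 10 kb away lay 14.8%, against 23.8%. The 1130 weaker shared regions within 500 bp of a combined region had median numbers of 17052.5 and 15844 in replicates 1 and 2, and the 1461 over 10 kb away had 18863 and 19179. The nearer ones were also more central and more often on X. Of the autosomal ones within 500 bp, 40.7% lay in the central part, against 14.2% of those over 10 kb away, and X held 26.3% against 12.05%. The density of the combined list along the chromosomes moves with these distances, and its part in them was not tested. By chromosome the median distance was shortest on X (1829 bp) and longest on IV (3303.5 bp). The farthest region, on V at 17314917 to 17315356 with numbers 19746 and 8173, lay 222871 bp from any combined region.

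Chromosome X held 2077 of the weaker shared regions (21.0%, Wilson interval 20.2 to 21.8), against 23.5% (22.7 to 24.3) of replicate 1 regions in the combined list and 19.0% (18.2 to 19.7) of the unshared ones. X made up 17.7% of the span. Density was 117.2 per Mb on X, 117.4 on I and 115.2 on III, so X was slightly below I and slightly above III. In the combined list it was above both, with 136.3 per Mb against 121.3 on I and 115.9 on III. Chromosome IV held 1758 weaker shared regions (17.8%, or 100.5 per Mb), against 14.8% of the combined-list regions (86.96 per Mb). Chromosome II had 1353 (88.6 per Mb). On V, which had the fewest for its span, 1358 regions gave 64.9 per Mb, close to the 67.7 per Mb of the combined list. On the 6 chromosomes the shares of the replicate 2 counterparts differed from these by at most 0.107 percentage points. The unshared regions of replicate 2, however, had 21.1% (20.3 to 22.0) on X, about the 21.0% of the counterparts. The gap on X between weaker shared and unshared regions was thus seen from replicate 1 alone. Intervals here cover counting error only and take neighbouring regions as independent, which they are not.

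**Figure D4:**
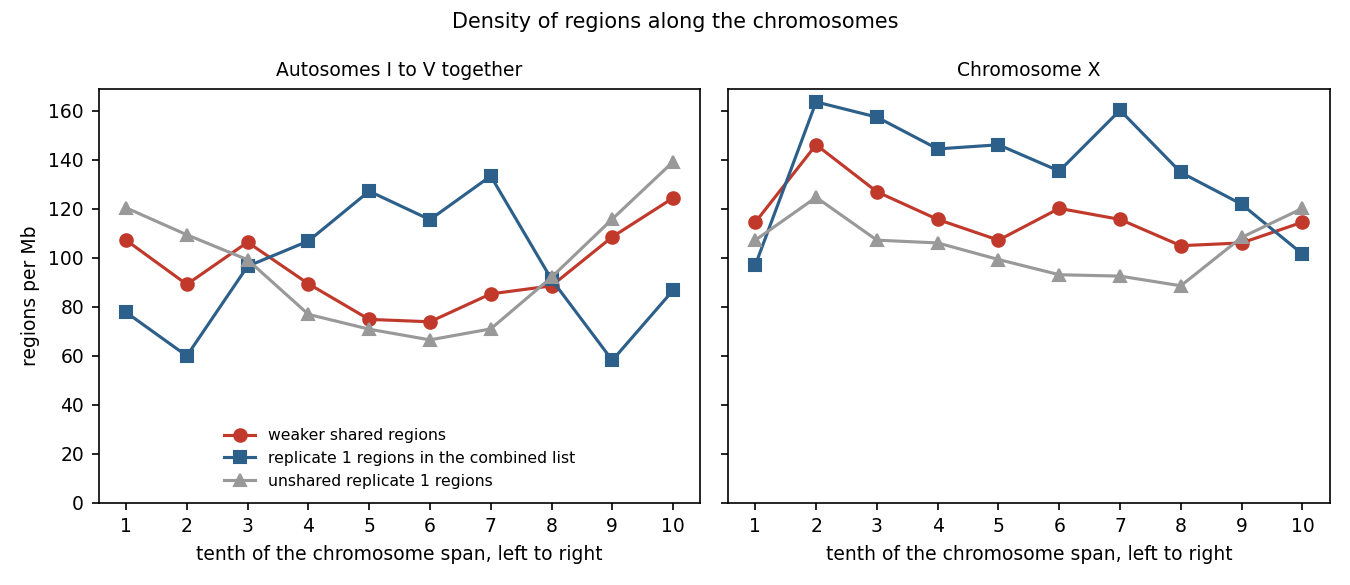
Regions per Mb in each of 10 equal parts of the chromosome span, left to right, for the 5 autosomes together (left) and X (right). On the autosomes weaker shared regions were at 73.9 per Mb in the sixth part and 124.5 per Mb in the last, the reverse of the combined list with 115.6 and 86.8 per Mb.

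Along the autosomes the 7823 weaker shared regions as one set were denser in the arms, the opposite of the combined list, but the better-ranked ones among them were not. The central part, the middle 33.3% of each span, held 2199 of 7823 autosomal regions (28.1%, Wilson interval 27.1 to 29.1), against 42.2% (41.1 to 43.3) of the combined-list regions and 24.7% (23.8 to 25.7) of the unshared ones. The replicate 2 counterparts gave 28.1% as well. On that side, though, the unshared regions were at 29.8% (28.8 to 30.8). The order of weaker shared and unshared regions thus differed between the replicates. Density was 79.9 per Mb in the centres and 102.2 per Mb in the outer parts, a ratio of 0.782, against 1.46 in the combined list. With both numbers up to 15000 the direction turned, as 393 of 1144 autosomal regions (34.4%, Wilson interval 31.7 to 37.2) were central, against 42.4% (41.3 to 43.6) of the combined-list regions with the same limits. That interval includes the 33.3% of an even spread. On each of the 5 autosomes the centre was less dense than both outer parts pooled. The left part of II was the exception among single parts, with 72.3 per Mb against 82.7 in its centre and 110.8 in its right part. The central share was 30.1% on I against 40.9% in the combined list, 31.1% against 45.7% on II, and 22.0% against 37.1% on III. It was 27.0% against 39.5% on IV and 31.1% against 48.7% on V. On X the shares were closer, with 31.6% (29.7 to 33.7) against 35.9% (34.1 to 37.9).

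**Figure D5:**
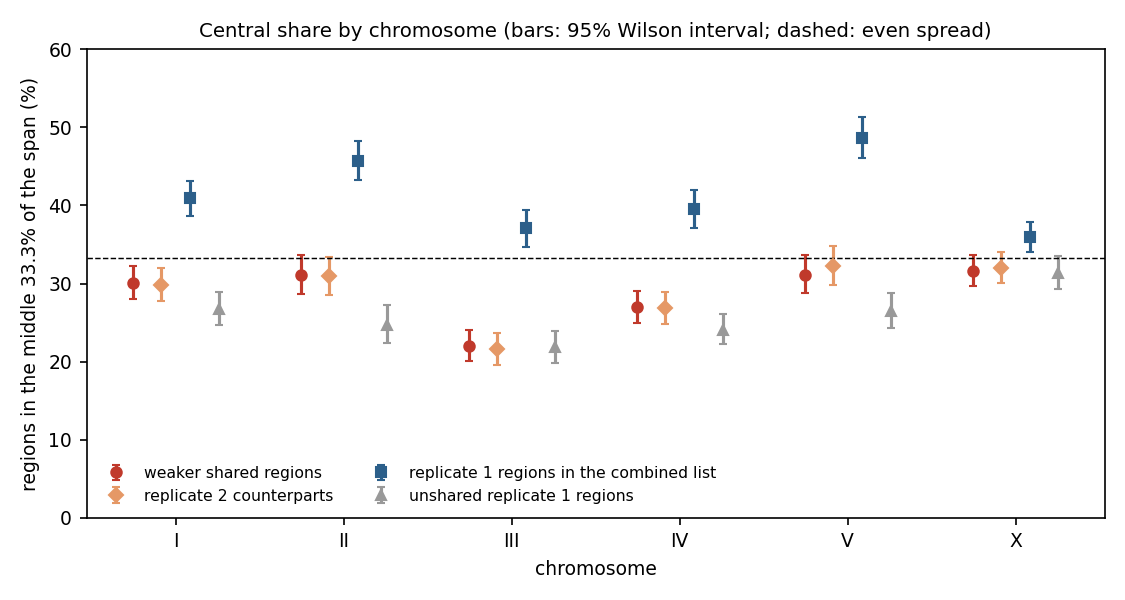
Percentage of regions in the middle 33.3% of each chromosome with 95% Wilson intervals for counting error, for weaker shared regions, their replicate 2 counterparts, replicate 1 regions in the combined list and unshared regions; the dashed line marks an even spread. Weaker shared regions lie below the combined-list regions on all 6 chromosomes, from 22.0% against 37.1% on III to 31.6% against 35.9% on X.

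Weaker shared regions cannot lie on combined regions, which are dense in the centres, so density was also taken over the free span, leaving out 220 bp on each side of every combined region. The free span was 92.2% of the centres and 94.6% of the outer autosomal parts. Over it the density was 86.7 per Mb in the centres and 108.1 per Mb in the outer parts, and the ratio of 0.802 was close to the uncorrected one. On single autosomes the corrected ratio ran from 0.572 on III to 0.938 on II, and it was 0.937 on X.

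The central share was also compared at like replicate 1 numbers. At numbers 7501 to 10000 it was 32.6% (Wilson interval 29.3 to 36.1) of the autosomal weaker shared regions, against 42.5% (39.2 to 45.7) of those in the combined list and 31.0% (26.2 to 36.2) of the unshared. At numbers 12501 to 15000 the values were 29.0% against 45.1% and 26.4%. At 25001 to 30000 they were 25.5% (23.4 to 27.8) against 36.5% (30.4 to 43.1) and 21.9% (20.2 to 23.6). The weaker shared regions were thus nearer to the unshared than to the combined-list regions at each of these ranks. Among them the central share was 35.6% at numbers 5001 to 7500 and 25.02% at 20001 to 25000. Median replicate 1 numbers were 17014 in the centres, 18253.5 in the left parts and 18141 in the right parts of the autosomes.

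The set was patchy at the scale of 100 kb. The median window held 9 weaker shared regions and 47 of 1005 windows held none, 25 of them on V. The richest was on IV at 14600001 to 14700000, with 33 (32 from the replicate 2 side), against 8 replicate 1 regions in the combined list. Next was IV at 14800001 to 14900000 with 31 against 10. On I, the window at 3000001 to 3100000 held 30 against 6. On X, 2500001 to 2600000 held 29 against 29. The window of V at 20000001 to 20100000, near the right end, held 29 against 9. These windows were picked for their many weaker shared regions, which favours an excess over the combined list. Over all windows, weaker shared regions outnumbered the combined-list ones in 433 (43.1%). Across all windows Spearman's rho between the 2 counts was 0.525, and on single chromosomes it ran from 0.150 on III to 0.602 on V, a description over windows of the same libraries. Between weaker shared and unshared regions, rho over the same windows was 0.578, so the combined list was not followed more closely. Of 53 windows without a combined region, 28 held weaker shared regions, 98 in all.

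About as many weaker shared regions lay beside another as lay apart. Within 1 kb of another were 4999 (50.5%), against 63.1% of the combined-list regions and 37.4% of the unshared. Overlap with another weaker shared region accounted for 2882 of these. After overlapping ones were merged the share was 30.4%, and with both numbers up to 15000 it was 18.2% of 1506 regions. Both steps leave fewer regions that could be neighbours, which by itself lowers the share. Joined with gaps of at most 1 kb, the regions formed 6985 runs, of which 4901 held 1 region and 563 held 3 or more. The longest run, on IV at 6652460 to 6660859, held 11 regions over 8.4 kb with replicate 1 numbers from 6654 to 27341. The second, on X at 17004766 to 17011409, held 9 regions over 6.64 kb. The third, on V at 980810 to 987286, also held 9, over 6.48 kb. Both of the others among the 5 longest were on X, at 3457006 to 3462037 with 8 regions and at 2627861 to 2632670 with 6. None of the 5 runs contained a combined region, which by the rule could lie only in a gap between their regions. The best number in the 5 runs was 6654 in replicate 1, in the run on IV. In replicate 2 it was 6374, in the run on X at 3457006.

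The longest stretch without a weaker shared region was taken on each chromosome. On V it lay at 16917454 to 17314916 (397 kb, with 2 combined regions) and on II at 1788463 to 2136143 (348 kb, with 3). On I a stretch of 263 kb, at 12228570 to 12491749, held 2 combined regions, and on X one of 192 kb, at 12702341 to 12894130, held 8. IV had 178 kb at 9883172 to 10061514 with 2 combined regions. On III the stretch of 170 kb at 7781465 to 7951922 held 12 combined and 8 unshared regions. The longest stretch of each chromosome without a combined region held between 0 weaker shared regions on I and 14 on III and IV. On IV, 14 lay at 16049170 to 16377781 beside 42 unshared regions, and on III 14 lay at 2152102 to 2304953 beside 28.

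The rule turns on 1 bp of overlap with the combined list. Just outside it, on X at 6953599 to 6954038, a weaker shared region with numbers 10163 and 1407 stopped 2 bp short of a combined region, and on III at 13350396 to 13350835 one with numbers 26027 and 12073 stopped 4 bp short. On X at 5866761 to 5867200 the gap was 9 bp (24112 and 3201), on I at 6608372 to 6608811 it was 12 bp (4173 and 3533) and on II at 6824081 to 6824520 it was 13 bp (26024 and 8921). Just inside it, replicate 1 regions overlapped a combined region by 3 bp on X at 10593958 to 10594397 (numbers 17696 and 20639), by 6 bp on IV at 3764387 to 3764826 (13246 and 14393) and by 7 bp on IV at 11349949 to 11350388 (17584 and 15862). On II at 6822495 to 6822934 the overlap was 7 bp, with number 22857 and no partner, and on III at 2912531 to 2912970 it was 9 bp (21738 and 5347).

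Of the 6 regions whose numbers differed most between replicates, 5 had a partner that was shared with another weaker shared region or overlapped the combined list. The largest difference, 3.64 on the log2 scale, was on I at 9014101 to 9014540 (numbers 20739 and 1661), and its replicate 2 partner was also that of the strong region at 9013899 to 9014338. On II at 10538057 to 10538496 (26244 and 2529) the partner was likewise that of another weaker shared region. On II at 6061759 to 6062198 (25153 and 2561) and for the 2 regions on X named above, at 5866761 and at 6953599, the partner overlapped the combined list. The sixth, on III at 8392445 to 8392884 (25791 and 3606), had neither. In all 6 the better number was that of replicate 2. The rule keeps the replicate 1 region, but not its partner, off the combined list, so it treats the 2 replicates unequally. The largest difference the other way was -2.62 on the log2 scale (numbers 4359 and 26769).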

How the data were processed

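Peak lists of 2 ChIP replicates and a combined list of the series were used. Per the file headers the build is WormBase WS220, and the source field reads SPP (software that calls ChIP peaks) via IDR (a comparison of ranks across replicates). The sources used here name no aligner, version or threshold, nor how the combined list was made. Per the labels' protocols worms were fixed in 2% formaldehyde, fixation was stopped with Tris, and chromatin was precipitated with anti-GFP antibodies. The deposited score of each peak has no stated scale, reaches a ceiling, and was used only at the ceiling and for 1 alternative ranking. The authors' peak numbers served as ranks. The Input libraries were not analysed on their own.

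Overlaps, distances (bp between edges) and densities were computed in Python 3.11.15 (scipy 1.17.1, pandas 2.3.3, numpy 2.4.6), and matplotlib 3.10.9 drew the plots. Functions were tested on simulated data. Positions count from 1. Chromosome spans end at the last region of any list. Mitochondrial regions (23 in replicate 1) were left out. Named regions are the 12 best in both replicates, the best of each chromosome, the 5 nearest to either side of the overlap rule, the 6 with the most different numbers, the 5 richest windows of 100 kb, the 5 longest runs and the longest empty stretches. The regions and rules were chosen with earlier results of these data known. No test was run, because the calls chose the regions and regions of 1 genome are not replicates. Genes and bases at the regions were not analysed here.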

Additional observations from a re-analysis of the deposited data

Results flagged for a closer look

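Mitochondrial DNA lies outside the rule, but 22 of its 23 replicate 1 regions overlapped a replicate 2 region, and the combined list held 0 there. It is given because no comparison above uses it.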

How the results depend on the processing

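Recomputing 6 results under 11 alternatives gave 49 values, of which 1 turned direction, 27 moved and 21 did not. A share counts as moved outside its 95% Wilson interval, a count beyond 1.5 times, and rank agreement or distance beyond the spread, which was the SD between both replicates' own versions and is small. The best-numbered partner and the leaving out of the 41 strong regions were added after the data had been seen. With only numbers up to 15000 in both replicates, 1506 regions remained, the X share was 24.04%, the central share 34.4% (the value that turned, being above an even 33.3%), the median distance 1895.5 bp, the share within 1 kb of another 18.2% and rho 0.0693. With 50% reciprocal overlap 7364 regions remained, that share was 37.3% and rho 0.0921. With no combined region within 500 bp, 8775 remained, the central share was 26.6%, the distance 3002 bp, the share within 1 kb 49.2% and rho 0.109. After merging, 8406 remained, the distance was 2483 bp, the share within 1 kb 30.4% and rho 0.135. With replicate 2 regions in place of replicate 1 regions, the distance was 2447 bp and rho 0.102. Both are among the 27 by construction, because the SD was taken from these values and the main ones. With the best-numbered partner rho was 0.112, and without the 41 strong regions 0.0920. With a centre of the middle 50% of the span, which is wider by construction, the central share was 44.1%. Without replicate 1 or 2, all regions of the other outside the combined list were taken. These gave counts of 19598 and 19692, X shares of 19.97% to 21.1%, central shares of 26.4% to 28.9%, distances of 2792 bp to 3095.5 bp and shares within 1 kb of 59.8% to 60.9%. The share within 1 kb also moves with the number of regions kept. Where not set by construction, the cause was not tested. No paired analysis was possible because the lists used here are those of ChIP alone and no result comes from a test. Sequencing depth is unknown, and both lists end at 30000 regions, so the count of weaker shared regions depends on where they end.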
